A study of Saccharomyces cerevisiae with 9 samples.

Results

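Yeast genes whose systematic name ends in a hyphen and a letter, such as VMA10 (YHR039C-A), were added to the gene catalogue after the numbers along each chromosome arm had been given out, and many of them are short. Every gene of the WT MNase-Seq tables with such a name was taken, which gave 21 of the 2426 genes, and the other genes have no suffix. No measured value was used to choose them. The data come from 1 sample, total histone MNase-Seq of wild type Saccharomyces cerevisiae with no deletion, tag or treatment named in its labels. The other 8 samples of the series are ChIP-exo samples and were not used here. Both tables give the coverage in RPM, reads scaled to the size of the library, for each gene, from 500 nucleotides upstream to 1000 downstream of the transcription start site (TSS) and over 200 nucleotides on each side of the transcript end site (TES). A legend in the paper starts the TSS window closer to the gene than the label does. The label was used, since both tables matched better with it, with a median correlation of 0.960 over 703 genes against 0.780 for a start at 200 nucleotides upstream. On that other scale every TSS position and ratio below would change. With 1 sample there is no replicate error, and the values below describe this library without a test.

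Micrococcal nuclease (MNase) digests the DNA between nucleosomes, so the signal at a base rises with the share of cells in which a nucleosome protects it. In the textbook picture of a yeast gene, a stretch of DNA just upstream of the TSS is free of nucleosomes, the +1 nucleosome lies at the TSS, and further nucleosomes follow at a regular spacing into the gene. Stiff runs of A or T and DNA-binding factors are known to keep nucleosomes off promoters, and another depleted stretch is often found where transcripts end. A short gene has room for few nucleosomes between both of these stretches, and the depleted DNA of its neighbours lies close by.

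The members encode small subunits of large complexes and small membrane or assembly proteins. Ribosomal proteins account for 5 of the 21 genes (RPL2A, RPL22B, RPL34A, RPL43B and RPS30A). The 6 mitochondrial genes are QCR10, a subunit of respiratory complex III, the respiratory chain assembly factors COA2, COA6 and COI1, ISD11, which is needed to build iron-sulfur clusters, and MCO6 of the outer membrane. Secretory or vacuolar genes were ERP1, YOS1, KSH1, VMA10 and NVJ3, 5 in all. LSO2 encodes a ribosome-associated protein, YSF3 a splicing factor subunit and MNC1 a putative membrane protein, and YKL033W-A and YBR085C-A are uncharacterized. "Small" held for most members but not for all. The coding sequence ranged from 159 nucleotides in MCO6 to 1392 in NVJ3, with a median of 279, against a median of 1449 over genes without a suffix. Counted from start to stop codon with introns, 11 members spanned less than 500 nucleotides, and 20 spanned at most 1000. Introns were annotated in 10 of the 21 members, against 5.82% of all 2424 genes found in R64, and YOS1 has 2 of them. No member overlapped another annotated gene (0.99% of all genes did), and 10 of 21 had an upstream neighbour on the same strand (49.2% of all genes). The paper describes the protein-coding genes of its average plots, 2426 by a legend, as non-overlapping. The lack of overlap thus follows from that choice and is not a trait of the members. Suffixed genes outside these 2426 were not seen here. The downstream neighbour was convergent in 7 of 21 members (33.2% of all genes).

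The 5′ depletion of the suffixed genes was on the whole as deep as that of other genes. It was measured as the mean signal of the bins from 0 to 75 nucleotides, the +1 window, over the mean of the 4 bins that end at -50, the depletion window. The median ratio was 2.00 over the 21 members, with quartiles of 1.68 and 2.98, and 2.00 over genes without a suffix, with quartiles of 1.39 and 2.83. The +1 window was at least 1.5 times the depletion window in 16 of 21 members, against 70.7% of all genes, so this share lies near the background. Among genes that span less than 500 nucleotides, the median ratio was 1.79 in 11 members and 1.87 in 99 genes without a suffix. In the median profile of the members the signal was lowest at -82.1 nucleotides, with 3.73 RPM, and the +1 peak lay at 31.6 nucleotides with 9.72 RPM. For genes without a suffix the same points lay at -80.8 nucleotides with 3.70 RPM and at 28.2 nucleotides with 9.02 RPM. These points thus lay close together in both profiles, and the +1 peak was slightly higher in the members.

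**Figure D1:**
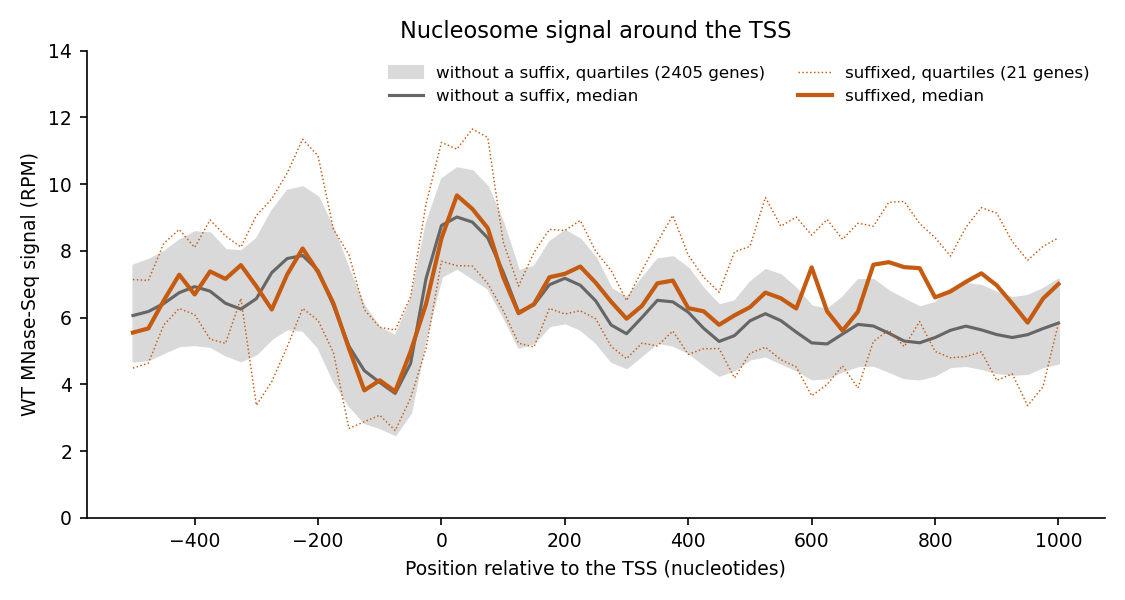
WT MNase-Seq signal in RPM against the position relative to the TSS in nucleotides, as the median over the 21 suffixed genes (thick line, with dotted quartiles) and over genes without a suffix (grey line, with quartiles shaded). Both medians are lowest at about -80 nucleotides and reach +1 peaks of 9.72 and 9.02 RPM, and they differ more further upstream and further into the gene.

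The agreement of the medians hides wide differences among members. Sequence windows of 120 bases are shown for the 4 members with the highest ratio, since long runs of A or T are the feature that stands out in them. They are read from R64, the assembly of sacCer3, in the direction of transcription, and cover the bases from -200 to -81 counted from the start codon. The distance from the TSS to the start codon was not known here, so the windows cannot be laid over the bins exactly. Capitals mark runs of at least 7 A or 7 T (AAAAAAA on either strand) and TATAAA on either strand.
VMA10, chrVIII:187760-187879, minus strand: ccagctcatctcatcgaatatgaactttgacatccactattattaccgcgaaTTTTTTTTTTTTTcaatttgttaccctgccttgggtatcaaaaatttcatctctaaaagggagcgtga
LSO2, chrVII:836746-836865, minus strand: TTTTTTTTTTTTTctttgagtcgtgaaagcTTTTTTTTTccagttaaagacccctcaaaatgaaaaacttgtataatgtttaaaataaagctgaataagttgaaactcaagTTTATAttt
ERP1, chrI:154805-154924, minus strand: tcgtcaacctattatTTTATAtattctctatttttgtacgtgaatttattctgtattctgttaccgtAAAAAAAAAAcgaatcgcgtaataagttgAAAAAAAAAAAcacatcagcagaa
RPL22B, chrVI:65013-65132, minus strand: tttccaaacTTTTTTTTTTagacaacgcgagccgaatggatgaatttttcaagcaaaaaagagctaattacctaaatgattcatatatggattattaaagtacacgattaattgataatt
The same windows of the 4 members with the lowest ratio are shown for comparison.
RPL43B, chrX:608105-608224, plus strand: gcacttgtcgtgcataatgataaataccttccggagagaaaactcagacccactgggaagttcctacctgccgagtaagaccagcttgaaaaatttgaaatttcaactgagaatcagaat
COA6, chrXIII:758912-759031, minus strand: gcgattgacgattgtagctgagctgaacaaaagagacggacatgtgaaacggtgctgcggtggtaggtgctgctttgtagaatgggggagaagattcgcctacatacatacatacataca
MNC1, chrII:351055-351174, plus strand: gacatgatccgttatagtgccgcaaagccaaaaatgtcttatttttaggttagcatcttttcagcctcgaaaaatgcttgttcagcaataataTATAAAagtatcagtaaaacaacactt
COI1, chrIV:1238931-1239050, minus strand: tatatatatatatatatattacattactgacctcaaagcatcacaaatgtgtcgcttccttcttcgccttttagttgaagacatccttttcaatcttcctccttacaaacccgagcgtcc

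The longest run of A or T in these windows was 13 bases in VMA10 and in LSO2, 11 in ERP1 and 10 in RPL22B. It was 5 bases in RPL43B and MNC1 and 4 in COA6 and COI1. Over the members as a whole the median was 5 bases, as it was over all genes. A run of at least 10 bases, a limit chosen after these windows were seen, occurred in 5 of 21 members and in 10.9% of all genes. The fifth such member was RPS30A, with a run of 11 bases. Since this limit was set on the members with the highest ratios, neither the share of members with such a run nor their ratios can be compared by it. Over genes without a suffix, whose values did not set it, the median ratio was 2.62 with such a run and 1.96 without. ISD11 and RPL34A, with longest runs of 5 and 3 bases, had ratios of 3.27 and 2.44. A link between the runs and the ratio was not tested. In windows of 300 bases, from 250 before to 50 after the start of the coding sequence, 3 motifs were searched on both strands. TATAAA, the core of the TATA box, was found in 47.6% of the members and 43.2% of all genes. AAAAAAA was found in 57.1% and 50.8%, and TTACCCG, a sequence bound by Reb1, in 4.76% and 8.58%. The single member with TTACCCG was ISD11.

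The highest ratios combined a low depletion with a +1 window of average or high signal. VMA10, which encodes subunit G of the vacuolar proton pump, had 1.36 RPM in the depletion window and 7.73 RPM in the +1 window, a ratio of 5.67. LSO2 had 1.98 and 8.98 RPM, a ratio of 4.53, and ERP1, a cargo receptor subunit of vesicles between the endoplasmic reticulum and the Golgi, had 3.01 and 13.02 RPM, a ratio of 4.33. VMA10 and LSO2 thus owed their ratios to the depletion, which lay below the first quartile of 3.22 RPM over genes without a suffix, while ERP1 also had a +1 window above the third quartile of 10.1 RPM. RPL22B had 2.73 and 9.30 RPM, a ratio of 3.41. ISD11 had 3.36 and 10.96 RPM, and RPS30A had 3.38 and 10.05 RPM. In these 6 members the depletion window held at most 3.38 RPM. RPL34A had the highest +1 window of the 21 members, 15.4 RPM, but also 6.33 RPM in the depletion window, a ratio of 2.44. The member just above the limit of 1.5 was YSF3 with a ratio of 1.68, and the member just below was YBR085C-A with 1.16.

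**Figure D2:**
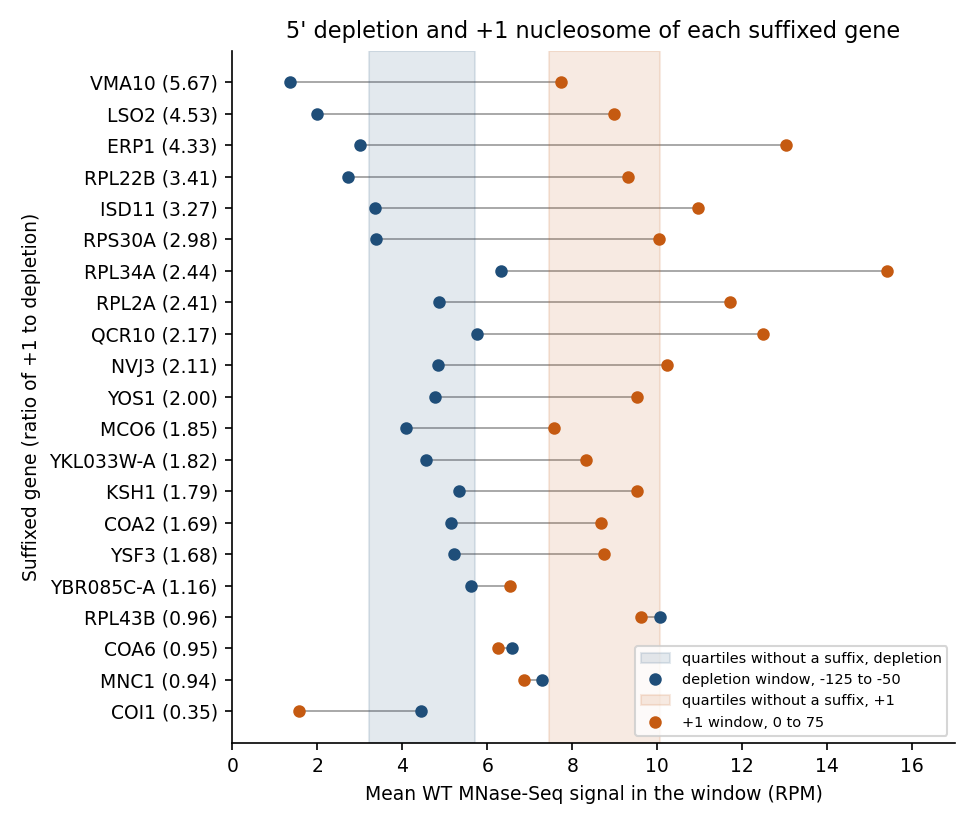
Mean WT MNase-Seq signal in RPM over the depletion window (blue) and the +1 window (orange) for each of the 21 suffixed genes, ordered by their ratio, which is given in parentheses. Shaded bands are the quartiles of the same windows over genes without a suffix, and the 4 genes at the bottom have less signal in the +1 window than in the depletion window.

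In 4 of 21 members the +1 window held less signal than the depletion window, which was the case in 8.66% of all genes. In RPL43B, COA6 and MNC1 the gap between both windows was less than the square root of either window's reads per base. In these 3 the fixed windows thus showed neither a depletion nor an excess, and the lowest bin lay further upstream in each. RPL43B had 10.05 RPM in the depletion window, the most of any member, and 9.62 RPM in the +1 window. Its signal formed a peak of 13.5 RPM at -100 nucleotides, fell to 2.87 RPM at -25 nucleotides and rose again to 13.7 RPM at 100 nucleotides. A peak thus stood in the depletion window of RPL43B, and its lowest bin, with 1.59 RPM, lay at -200 nucleotides. COA6, a copper chaperone in the assembly of cytochrome c oxidase, had 6.58 and 6.26 RPM, and MNC1 had 7.28 and 6.85 RPM. In both, the signal was lowest further upstream, at -275 nucleotides with 3.13 RPM in COA6 and at -375 nucleotides with 1.17 RPM in MNC1. COI1 had 4.43 RPM in the depletion window and 1.56 RPM in the +1 window, a ratio of 0.353, which was lower than in all but 0.208% of the genes. Its lowest bin lay downstream of the TSS, at 25 nucleotides with 0.314 RPM, the equivalent of 10.5 reads. The first peak of COI1 after it lay at 129 nucleotides with 5.10 RPM and the next at 267 nucleotides with 10.9 RPM, so that its deepest trough lay about 100 nucleotides downstream of the usual place. The lowest bin between -400 and 150 nucleotides lay outside -150 to 0 in 6 of 21 members, against 39.7% of all genes.

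By class, the median 5′ ratio was 2.44 over the 5 ribosomal protein genes, 1.77 over the 6 mitochondrial genes and 2.11 over the 5 secretory and vacuolar genes. These classes overlap widely, since the ribosomal protein genes ranged from 0.956 in RPL43B to 3.41 in RPL22B and the mitochondrial genes from 0.353 in COI1 to 3.27 in ISD11. The median was 2.29 in the 10 members with an intron and 1.82 in the 11 without, again with overlapping ranges. Single members resembled the average gene less than other genes did. The correlation of a gene's 61 bins at the TSS with the mean profile of genes without a suffix had a median of 0.298 over the members, from -0.440 in COI1 to 0.712 in RPL2A, and of 0.474 over genes without a suffix. Among genes that span less than 500 nucleotides these medians were 0.179 and 0.267, both lower than over genes of any span. Bins of a gene are not independent, and the values are given as a description.

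Between the TSS and the 3′ end the suffixed genes had few nucleosome peaks, in number close to genes of the same length. Peaks were counted where the signal rose above its surroundings by at least 10% of the gene's own mean. Counting began at the TSS, which left out peaks just upstream of it, such as those at -15.2 nucleotides in YOS1, -8.38 in YKL033W-A and -33.4 in YBR085C-A. The tables do not hold the distance from the TSS to the TES, and 2 ends were used, the coding span laid from the TSS on and the distance at which the TES table matched the TSS table. With the coding span, which could be used for 20 members, 2 members had 1 peak, 10 had 2, 3 had 3 and 5 had 4. Thus 12 of 20 had at most 2 peaks, against 13.8% of the 703 genes that span at most 1000 nucleotides, and the median was 2 in the members and 4 in 683 genes without a suffix. Low peaks and close pairs were counted as well, and the second of the 2 peaks of RPL2A held only 0.698 RPM. Within classes of span the medians differed by at most 1. Under 300 nucleotides the median was 2 in 8 members and 1 in 5 genes without a suffix, and from 300 to 500 nucleotides it was 2 in 3 members and 3 in 94 genes. From 500 to 700 nucleotides the median was 3.5 in 6 members and 4 in 194 genes, and from 700 to 1000 nucleotides it was 4 in 3 members and 5 in 390 genes.

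The coding span, laid from the TSS, ended well before the TES in most members. The profile around the TES was moved along the profile around the TSS until both matched, with a correlation of at least 0.95 and a median difference of at most 10%. This gave a distance for 18 of the 20 members and for 350 of 683 genes without a suffix. MCO6 was not matched, with a correlation of 0.913, nor was RPL2A, whose signals differed by 148%, and NVJ3 is longer than the TSS window. The matched distance ranged from 539 nucleotides in KSH1 to 879 in COI1, with a median of 688, and none of the 18 had its TES closer to its TSS than KSH1. The distance exceeded the coding span by a median of 262.5 nucleotides in the members and 145 in genes without a suffix. This excess holds the parts of the transcript before the start codon and after the stop codon together. It is not the distance from the stop codon to the TES. The search began at the coding span and could not pass 1000 nucleotides from the TSS. The excess could thus not be negative, and longer genes had less room for it. With a span of 700 to 1000 nucleotides, 130 of 390 genes without a suffix were matched, at a median distance of 926. Both medians of the excess therefore depend on span. At a span under 500 nucleotides the excess was 347.5 in 10 members and 190 in 77 genes without a suffix. Those 10 members had a median span of 282 nucleotides and those genes one of 426, and under 300 nucleotides the matched distance was 648 in 7 members and 756 in 3 genes without a suffix. Even MNC1, with a coding span of 201 nucleotides, had its matched TES at 661 nucleotides.

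**Figure D3:**
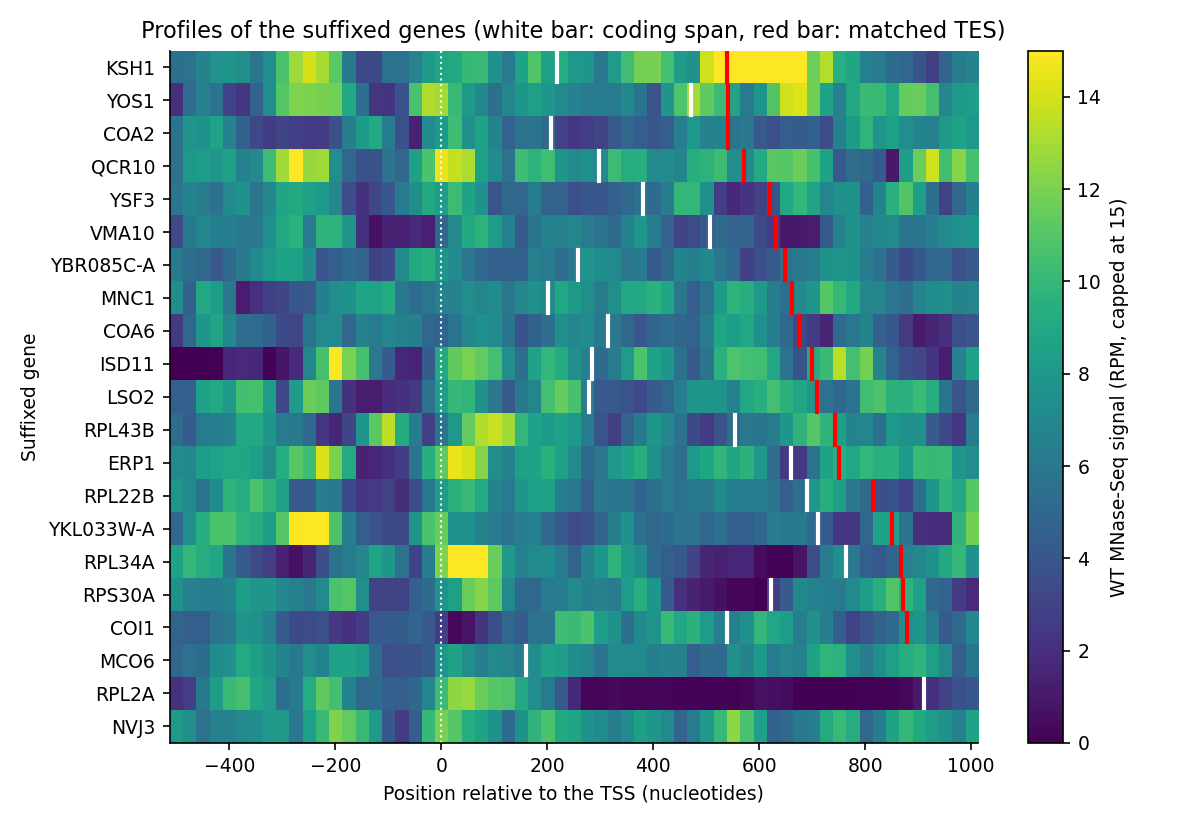
WT MNase-Seq signal in RPM (colour, capped at 15) against the position relative to the TSS in nucleotides for the 21 suffixed genes, ordered by the matched distance from TSS to TES. White bars mark the coding span laid from the TSS and red bars the matched TES, which ranges from 539 to 879 nucleotides and is missing for MCO6, RPL2A and NVJ3.

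Up to the matched TES, 5 members had 3 peaks, 8 had 4, 4 had 5 and COI1 had 6, with a median of 4 over 18 members and 5 over 350 genes without a suffix. With a TES at 400 to 600 nucleotides the median was 3.5 in 4 members and 3 in 38 genes without a suffix. At 600 to 800 nucleotides it was 4 in 9 members and 4 in 126 genes, and at 800 to 1000 nucleotides it was 5 in 5 members and 5 in 185 genes. The number of peaks thus rose with the distance in both groups, and their medians differed by less than 1 in each of these classes. At 600 to 800 nucleotides the mean was 3.67 in the members and 4.38 in genes without a suffix, with at most 4 and 8 peaks. The means were 3.75 and 3.37 at 400 to 600 nucleotides, and 5 and 5.37 at 800 to 1000. In steps of 50 nucleotides, the median over genes without a suffix was 5 at 700 and at 750, where ISD11, LSO2 and ERP1 had 4 peaks and RPL43B had 3. ERP1 showed the textbook pattern, with peaks at 34.05, 199, 370 and 525 nucleotides and heights of 14.8, 9.50, 9.46 and 9.85 RPM. ISD11 had its +1 peak at 50.6 nucleotides and further peaks at 204, 376 and 557 nucleotides of 9.97, 10.8 and 10.9 RPM. The last 2 lie beyond the coding span of 285 nucleotides laid from the TSS, and the place of its stop codon on this scale was not known. In RPL43B only 3 peaks lay before the matched TES at 744 nucleotides, at 97.1, 404 and 699.8 nucleotides. COA2 had 5 peaks before a TES at 542 nucleotides, but the second, at 8.71 RPM, lay close to the first, and the next 2 were low, with 5.80 and 4.93 RPM. Of the 6 peaks of COI1, those at 429 and 471 nucleotides also lay close together. Such pairs need not stand for separate nucleosomes.

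**Figure D4:**
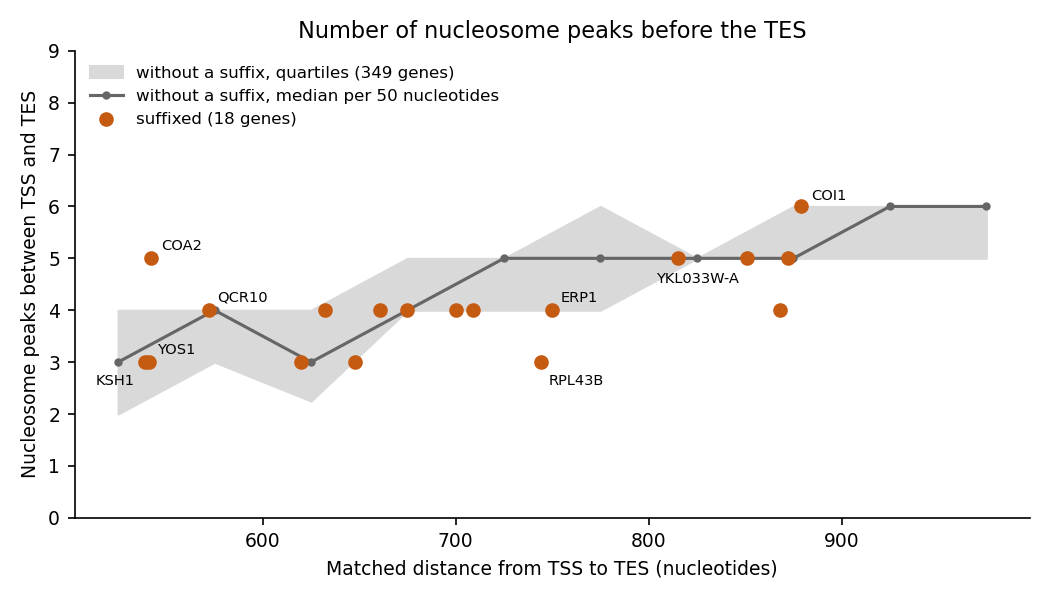
Number of nucleosome peaks between the TSS and the matched TES against the matched distance in nucleotides for 18 suffixed genes (orange) and for genes without a suffix (grey median and quartiles per 50 nucleotides). Most suffixed genes lie within the grey band, with COA2 above it and RPL43B and RPL34A below.

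Stretches of low signal downstream of the TSS were found in some ribosomal protein genes, which have paralogs. In RPL2A the signal stayed under 1 RPM from 275 to 875 nucleotides, a stretch of 625 nucleotides with a mean of 0.196 RPM, the equivalent of 6.53 reads. RPL34A had such a stretch of 100 nucleotides from 600 to 675, and RPS30A had a stretch of 100 nucleotides from 525 to 600. Downstream of the TSS, a stretch of at least 100 nucleotides under 1 RPM occurred in these 3 of 21 members, or 14.3%, and in 5.49% of genes without a suffix. The coding sequence of RPL2A was identical to that of its paralog RPL2B at 96.3% of the bases, that of RPS30A to RPS30B at 95.3% and that of RPL34A to RPL34B at 92.6%. RPL43B, at 89.6% identity with RPL43A, and RPL22B, at 78.9% with RPL22A, had no bin under 1 RPM downstream of the TSS. Downstream of the TSS the low stretches thus occurred in the 3 members with the closest annotated paralogs. The part of shared reads in them was not tested, and the signal of the paralogs was not compared. Upstream of the TSS, ISD11, for which no paralog is annotated, held at most 0.0899 RPM in the 4 bins from -500 to -425 nucleotides. Windows of 50 bases found nowhere else in the genome made up 86.5% of the sequence around RPL2A, 96.9% around ISD11 and 98.3% around RPS30A. They made up at least 99% in 18 of 21 members (92.4% of all genes), among them RPL34A with 99.2%. Stretches of RPL2A in which most of these windows have a second copy covered 63 and 138 nucleotides. They count exact copies of 50 bases only, so their length does not measure the part of shared reads in the low stretch.

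Set against genes of all spans, the suffixed genes differed more from other genes at the TES than at the TSS. Among short genes the medians of both groups lay about as close together at the TES as at the TSS. The ratio of the upstream window, from -140 to -70 nucleotides, to the TES window, from -30 to 80, had a median of 0.962 over the 21 members, with quartiles of 0.698 and 1.05. Over genes without a suffix the median was 1.16, with quartiles of 0.8504 and 1.79. A dip, with a ratio of at least 1.5, was present in 3 of 21 members, against 33.1% of all genes. The TES window held more signal than the upstream window in 13 of 21 members (38.4% of all genes), and at least 1.5 times as much in 5 of 21 (12.4% of all genes). These shares are over genes of all spans and not over short genes. The difference was smaller among short genes, with a median ratio of 1.00 in 11 members and 1.05 in 99 genes without a suffix that span less than 500 nucleotides. It also moved with introns, since genes without a suffix but with an intron had a median of 0.886. The 10 members with an intron had a median of 0.928, so that the direction of the difference turned among genes with introns. With a downstream neighbour on the same strand the median was 0.965 in 14 members and 1.24 in 1604 genes without a suffix, and with a convergent neighbour it was 0.829 in 7 members and 1.07 in 798 genes. The members thus had the lower median in both orientations. The parts that span, introns and neighbours take in the difference were not tested further.

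The dips at the TES were deep where they occurred. VMA10 had 4.84 RPM in the upstream window and 1.69 RPM in the TES window, a ratio of 2.87, and its signal fell to 0.807 RPM at 53.3 nucleotides. COA6 had 8.39 and 3.32 RPM, a ratio of 2.53, with 0.765 RPM at 40 nucleotides. RPL22B had 8.23 and 4.11 RPM, a ratio of 2.00. VMA10 and RPL22B thus combined a deep depletion at both ends, while COA6 had a clear depletion at its TES and none in the fixed windows at its TSS. LSO2 followed with 9.43 and 6.63 RPM, a ratio of 1.42, short of the limit. From MNC1 at 1.16 to RPS30A and YSF3 at 0.818 and 0.816, 11 members had ratios close to 1. Such a ratio does not mean a flat profile, since features next to the windows average out in it. YSF3 fell to 1.56 RPM at -66.7 nucleotides and rose to 9.76 RPM at 53.3. ISD11 had 12.4 RPM at -133.3 nucleotides, 2.70 RPM at -33.3 and 12.4 RPM at 53.3. RPS30A peaked at -26.7 nucleotides with 11.5 RPM and fell to 1.17 RPM at 133.3, so that each of these 3 members had a trough outside the TES window.

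A rise at the TES had several forms. ERP1 had 3.84 RPM in the upstream window and 9.54 RPM in the TES window, a ratio of 0.402, since its lowest bin of 1.90 RPM lay at -93.3 nucleotides, upstream of the TES. RPL2A had 3.87 and 8.49 RPM, a ratio of 0.456. Its TES was not matched, so where these windows lie relative to its stretch of low signal is not known. COI1 had 3.93 and 6.42 RPM and YKL033W-A 3.15 and 5.11 RPM, with ratios of 0.611 and 0.616, and in these the upstream window was low rather than the TES window high. Within the TES window the signal of YKL033W-A fell from 8.89 RPM at -26.7 nucleotides to 1.52 RPM at 80. This was its lowest bin around the TES, so the window mean hides a trough just downstream of the TES. NVJ3, a lipid-binding protein of contacts between nucleus and vacuole, had 8.81 and 12.6 RPM, the highest TES window of any member but KSH1 and a ratio of 0.698. KSH1, an essential gene of the early secretory pathway, stood apart from all others. Its upstream window held 9.28 RPM and its TES window 75.5 RPM, a ratio of 0.123, and the signal reached 135 RPM at 66.7 nucleotides downstream of the TES. In the TSS table the same peak reached 131 RPM at 600 nucleotides, while the rest of the KSH1 profile was ordinary, with 5.32 RPM in the depletion window and 9.53 RPM in the +1 window. The origin of this peak was not tested, and reads would be needed to find it. Its height is therefore not read here as a share of cells with a nucleosome. KSH1 is among the members counted above with at least 1.5 times as much signal in the TES window.

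KSH1 alone shaped the mean profiles of the group. At 600 nucleotides downstream of the TSS the mean over the 21 members was 11.9 RPM with KSH1 and 5.98 RPM without it, against 5.24 RPM over genes without a suffix. In the TES window the mean was 10.3 RPM with KSH1 and 7.02 RPM without it, against 6.14 RPM. The medians do not rest on this gene, since the median TES ratio was 0.965 without KSH1. Within the TES window of the median profiles the members were lowest at its upstream edge, at -26.7 nucleotides with 6.48 RPM, and genes without a suffix at 60 nucleotides with 5.75 RPM. Around the TES the correlation of single genes with the mean profile of genes without a suffix had a median of -0.155 over the members and 0.225 over genes without a suffix. It ranged from -0.687 in KSH1 to 0.787 in VMA10. VMA10 and RPL22B were the members closest to the average gene at the TES.

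**Figure D5:**
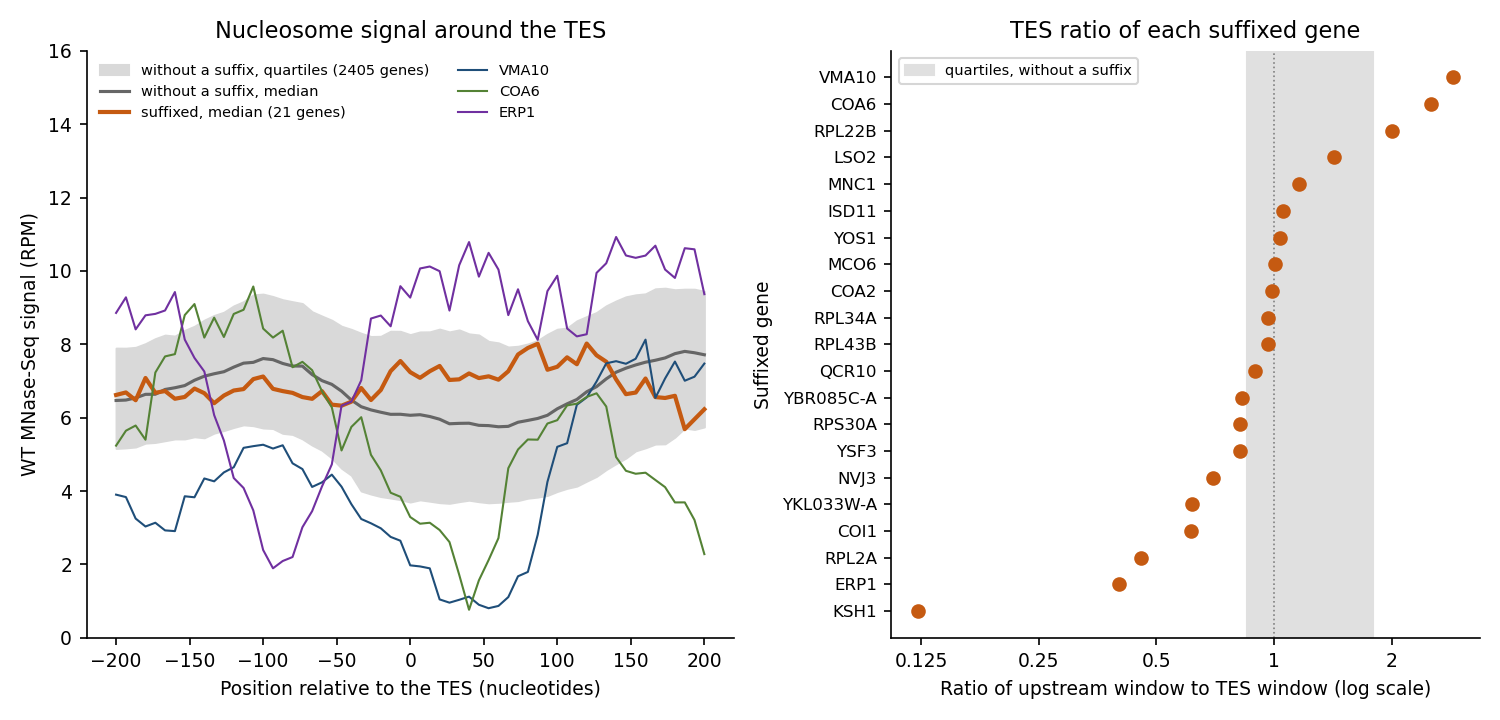
Left, WT MNase-Seq signal in RPM against the position relative to the TES in nucleotides, as medians over the 21 suffixed genes and over genes without a suffix (quartiles shaded), with VMA10, COA6 and ERP1 as single genes. Right, ratio of the upstream window to the TES window on a log scale for each suffixed gene, from 0.123 in KSH1 to 2.87 in VMA10, with the quartiles of genes without a suffix shaded.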

How the data were processed

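Total histone MNase-Seq of WT cells was analysed. For each gene and bin the deposited tables hold a coverage signal in RPM, which the authors obtained with ngs.plot from SOLiD reads that bfast had placed on sacCer3. The paper's methods mention 2 biological replicate experiments per genotype for average gene plots. Whether the MNase-Seq tables pool them, and the transcript annotation, are not given in the sources used here. Of 101 columns, 20 at either end only hold the value of the window's edge and were dropped, and the 61 between them were spread over the labelled windows, in steps of 25 nucleotides at the TSS and 6.67 at the TES. Coverage is smoothed by the length of the reads, which lowers ratios of peaks to troughs. All 9633 edge values above 0 were whole multiples of 0.0300 RPM (tolerance 0.01 of a read), the worth of 1 read in a library of 33313664 reads, and a median edge base was covered by 215 reads. Differences below the square root of the reads are within counting error. In ratios, windows under 3 reads (0.0901 RPM) were set to this floor.

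Peaks are local maxima with a prominence of at least 10% of the gene's mean, placed by a parabola. For the TSS to TES distance, lengths up to 800 nucleotides beyond the coding span were tried in steps of 5, with at least 31 shared bins. The limit of 10% on the median difference was chosen after seeing the data. Coordinates, introns, paralogs, neighbours, unique 50-mers and sequences come from RefSeq R64, in which 2424 of 2426 genes were found, all with the same strand. Members, lists and tests were chosen with earlier results of these data known. The rule named the 4 members with the highest and lowest ratio at each end, the 3 with the longest and shortest coding sequence and the 3 with the highest and lowest mean signal, those next to the limit of 1.5, and up to 12 with a known function. The few others are named as their values were seen. Each group is described by counts and medians beside all genes. The peak count, the ratios and the matching were tested on simulated data. Scripts ran in Python 3.11.15 with scipy 1.17.1 and numpy 2.4.6, tables were read with pandas 2.3.3, and figures were drawn in matplotlib 3.10.9.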

Additional observations from a re-analysis of the deposited data

How the results depend on the processing

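Of 60 alternative values for 9 results, 43 stayed close to the reported value (medians within 10%, counts within 1.5 times, differences within 0.1 on the log2 scale) and 17 moved. With each gene's own extremes in place of fixed windows, the median 5′ ratio was 4.56 (4.49 without a suffix), the median TES ratio 2.14 (3.54), the TES dips 18 of 21 (90.9% of all genes) and the TES difference between groups -0.73 (log2), since extremes raise every ratio. By these extremes a 5′ depletion was called in 21 of 21 members (99.1% of all genes). With a window from 200 nucleotides upstream, the median 5′ ratio was 1.13 in both groups and 4 members were called (21.3% of all genes). With a limit of 2, 10 were called (49.9% of all genes). With genes of at least 99% unique 50-mers, the log2 difference of the 5′ ratio was -0.15 and the members had 3 peaks fewer than genes without a suffix (median difference -3). The median number of peaks was 3 with a prominence of 5%, 4 with the 3′ end at the matched distance and 2.5 with peaks counted from 75 nucleotides upstream. The difference in peaks between groups was -1 with a prominence of 20%, -1 at the matched distance, -2.5 with peaks from 75 nucleotides upstream and 0 when all members, long ones included, were set against genes without a suffix that span 159 to 471 nucleotides, where the TES difference was -0.12. Leaving out KSH1 or RPL2A, chosen after seeing the data, changed no median by more than 10%. Restricting the members to genes with no overlap, or to a mean signal of at least 3 RPM, removed none of them. Medians and counts of the members could thus not move under these 2 settings, yet they are among the values that stayed close. No member is a retrotransposon reading frame or has another kind of name in the tables, so alternatives for those gave no other value. No paired analysis was possible because 1 sample was used. With 1 sample no replicate could be left out.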
